A study of Mus musculus with 8 samples.

Results

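The death-associated protein kinases were followed in KPCY cells, a mouse pancreatic cancer line that the labels give as male. The set holds 4 of the 24421 genes of the count table, chosen by symbol: Dapk1, Dapk2, Dapk3 and Stk17b. They were put together with their counts in this comparison already known, to show Dapk1 beside its paralogs, so their own values are given as a description without a test. All 4 passed the filter on low counts, as did 11797 genes in all. One group, the knockdown (KD), was a stable line made with a lentiviral vector that inhibits miR-27a-3p. The other (Scr) was a line made with a scrambled sequence. Both groups were selected with puromycin at 2 µg/mL for 7 days and grown with 4.5 g/L glucose and 10% serum. Cells were lysed for RNA 24 hours after they had been seeded. Each group had 4 libraries of poly(A)-selected RNA. Although they are labelled as biological replicates, the protocol describes 1 stable line per group, so p-values measure the spread between samples of these lines, which may be technical, and not between separate transductions. The Mir27a precursor gene had 0 counts in the Scr libraries together and 1 in the KD libraries, and poly(A) libraries do not measure the mature miRNA, so the inhibition itself cannot be checked here. Fold changes are KD over Scr, n = 4 per group, and levels are in CPM, counts scaled to the size of each library, as mean ± SD.

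Death-associated protein kinases are serine/threonine kinases that share a closely related catalytic domain. DAPK1 and DAPK2 carry a calmodulin-binding autoinhibitory segment and are switched on by calcium and calmodulin. DAPK1 also has ankyrin repeats and a death domain, is known as a promoter of apoptosis, autophagy and membrane blebbing through myosin light chain phosphorylation, and is silenced by promoter methylation in many cancers. DAPK3, also called ZIPK, lacks the calmodulin segment, has a leucine zipper and acts on myosin light chain and its phosphatase. Stk17b, also called DRAK2, is a more distant relative best known from T cells.

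Because the vector targets miR-27a-3p, its sequence is shown with that of miR-27b-3p, which has the same seed (bases 2 to 8, in capitals). The sequences are from RefSeq, build GRCm38.p6.
mmu-miR-27a-3p: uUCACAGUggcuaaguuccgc
mmu-miR-27b-3p: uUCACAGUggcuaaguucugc
The longest annotated 3′ UTR of each kinase was read for the sites that pair with this seed: the 8mer ACTGTGAA, the 7mers ACTGTGA and CTGTGAA, and the 6mer core CTGTGA, on the transcript strand. Dapk1 (UTR of 934 bases) and Dapk3 (253 bases) held no match to the core. Dapk2 (535 bases) and Stk17b (1982 bases) each held 1 match, a bare 6mer in both cases. These 2 windows are shown because they are the only matches in the set, with the 6mer in capitals.
Dapk2, chr9:66272106-66272131 (plus strand): gggaccaatcCTGTGActtaacagaa
Stk17b, chr1:53757463-53757487 (minus strand): catttttctCTGTGActcatctgga
Among 11362 tested genes with an annotated 3′ UTR (median 1199 bases), 34.3% held a bare 6mer, 6.42% an 8mer and 49.1% a match of any of these types. A match describes letters only, and its absence says only that these letters are not in the annotated UTR.

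Dapk1 was the member with the largest difference between the lines. The gene lies on chromosome 13 (GRCm38, 60601947 to 60763191, plus strand). Its counts were 36, 61, 71 and 47 in Scr replicates 1 to 4 and 389, 363, 373 and 446 in KD replicates 1 to 4. Scaled to library size these are 1.75, 3.07, 3.04 and 2.28 CPM against 19.9, 18.8, 19.0 and 20.3 CPM. Every KD library stood far above every Scr library, and the nearest libraries of the groups were 6.12-fold apart. The fitted log2 fold change was 2.94 (SE 0.112, 7.66-fold), from 2.54 ± 0.641 to 19.5 ± 0.721 CPM. Its absolute log2 fold change ranked 21st of 11797 tested genes, so 0.178% of tested genes, Dapk1 included, had one as large or larger. In such bulk samples a change in the share of cells that express a gene and a change of RNA per cell cannot be told apart.

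The Scr libraries varied more for Dapk1 than their counts alone would give. Their coefficient of variation was 25.3%, against 13.6% from counting error at the mean count. The KD libraries varied by 3.69%, with 5.05% from counting error. Scr replicate 1 was the lowest library (36 counts, exact Poisson 95% interval 25.2 to 49.8) and Scr replicate 3 had the most counts of its group (71, interval 55.5 to 89.6). The KD library with the fewest counts, replicate 2, had 363 (interval 327 to 402). These intervals are on unscaled counts and cover counting error only.

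Dapk2, the calmodulin-regulated paralog on chromosome 9 (66158223 to 66272242, plus strand), was close to the limit of detection in both lines. It had 8, 8, 10 and 14 counts in the Scr libraries and 19, 22, 14 and 27 in the KD libraries. Its levels were 0.388, 0.403, 0.429 and 0.680 CPM against 0.973, 1.14, 0.715 and 1.23 CPM. The groups did not overlap, but Scr replicate 4 and KD replicate 3 had 14 counts each and were 1.05-fold apart after scaling. The log2 fold change was 1.09 with an SE of 0.302 (2.14-fold), and the difference in level was 0.539 CPM, against 17.0 CPM for Dapk1. The spread between replicates, 29.0% in Scr and 22.3% in KD, was close to the 31.6% and 22.1% that counting error gives at these counts.

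Dapk3, the zipper-containing paralog on chromosome 10 (81183005 to 81193197, plus strand), was at a moderate level in both lines. The Scr libraries held 33.5, 31.5, 31.1 and 31.6 CPM and the KD libraries 33.4, 39.7, 37.5 and 35.7 CPM. The groups overlapped, since KD replicate 1 lay just below Scr replicate 1. The log2 fold change was 0.20 (SE 0.0539, 1.15-fold), from 31.9 ± 1.10 to 36.6 ± 2.68 CPM. At its 5′ end Dapk3 shares 212 exon bases with the annotated gene 4930442H23Rik on the opposite strand, and the strand setting of the counting is not given in the sources used here. Upstream on the same strand, 506 bases away, ends Eef2, the translation elongation factor, which had 2900 ± 50.1 CPM in Scr and 3221 ± 31.2 CPM in KD (1.11-fold, adjusted p = 4.34e-07). Whether reads from this gene enter the Dapk3 count was not tested.

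Stk17b, the DRAK2 gene on chromosome 1 (53755506 to 53785224, minus strand), differed in the opposite direction. It stood at 34.8, 34.0, 36.4 and 33.4 CPM in the Scr libraries and at 31.3, 30.2, 27.6 and 30.2 CPM in the KD libraries. All KD libraries were lower than all Scr libraries, with the nearest pair 1.07-fold apart. The log2 fold change was −0.22 (SE 0.0517), a 1.16-fold lower level, 29.8 ± 1.58 against 34.7 ± 1.31 CPM. Its counts, 540 to 849 per library, were as high as those of Dapk3, 625 to 783, so both small differences were measured with more counts than the larger one of Dapk2.

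**Figure D1:**
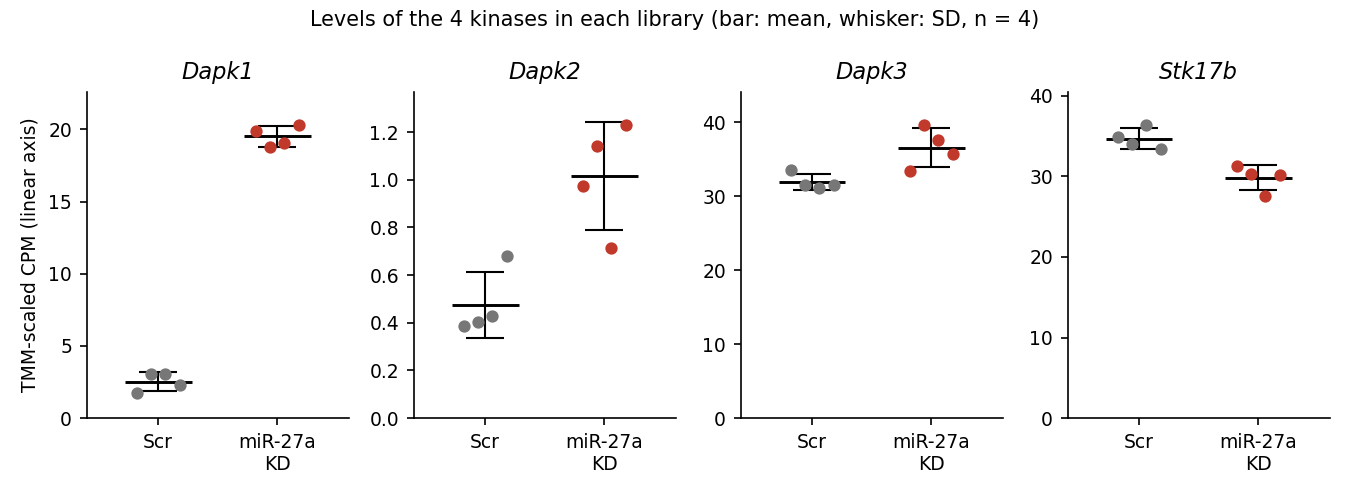
Levels of Dapk1, Dapk2, Dapk3 and Stk17b in TMM-scaled CPM on linear axes from 0, with 1 point per library (grey Scr, red KD), the mean as a bar and the SD as whiskers (n = 4). Dapk1 goes from 2.54 to 19.5 CPM with a wide gap between the groups, while the Dapk3 groups overlap and the Stk17b groups lie close together in the other direction.

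Of the 4 kinases, 3 had groups that did not overlap, 2 higher and 1 lower in KD, where 42.2% of all tested genes did not overlap, 21% higher and 21.1% lower. As the members were chosen on this contrast, nothing is read from that count. At least 2-fold differences were seen in 3.03% of tested genes, and Dapk1 and Dapk2 were among them.

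Levels of different genes were compared per kilobase of merged exon (9012 bases for Dapk1, 3512 for Dapk2, 2532 for Dapk3 and 5185 for Stk17b). In the Scr line the order was Dapk3 at 12.6 ± 0.433, Stk17b at 6.68 ± 0.252, Dapk1 at 0.281 ± 0.0711 and Dapk2 at 0.135 ± 0.0392 CPM per kb. The ranges of Dapk1 (0.194 to 0.341) and Dapk2 (0.111 to 0.194) met at their ends, so these neighbours in the order were barely separated in Scr, where Scr replicate 1 was the lowest for Dapk1 and Scr replicate 4 the highest for Dapk2. In the KD line the order was the same, Dapk3 at 14.4 ± 1.06, Stk17b at 5.75 ± 0.304, Dapk1 at 2.17 ± 0.0800 and Dapk2 at 0.289 ± 0.0645 CPM per kb, and no ranges met. Dapk1 thus stood below Stk17b and Dapk3 in both lines. With the longest annotated transcript as the length, Dapk1 came to 0.462 and 3.56 CPM per kb in Scr and KD, the other levels were also higher, and the order was the same.

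Summed per kb, the 4 kinases came to 19.7 ± 0.414 in Scr and 22.6 ± 0.921 in KD, a ratio of 1.15, and the groups did not overlap (19.3 to 20.3 against 21.7 to 23.9). Dapk1 made up 1.43% ± 0.374 of this sum in Scr and 9.58% ± 0.662 in KD. The share of Stk17b went from 33.9% ± 1.10 to 25.4% ± 1.82, and that of Dapk3 was 64.0% ± 1.34 and 63.7% ± 2.49. Without Dapk1, the sum of the other 3 kinases per kb was 19.4 ± 0.458 in Scr and 20.5 ± 0.975 in KD, a ratio of 1.05 with overlapping groups. In CPM without the length scaling, the ratio was 1.25 for all 4 kinases and 1.01 for the 3 without Dapk1 (67.1 ± 1.53 and 67.4 ± 2.52, overlapping).

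**Figure D2:**
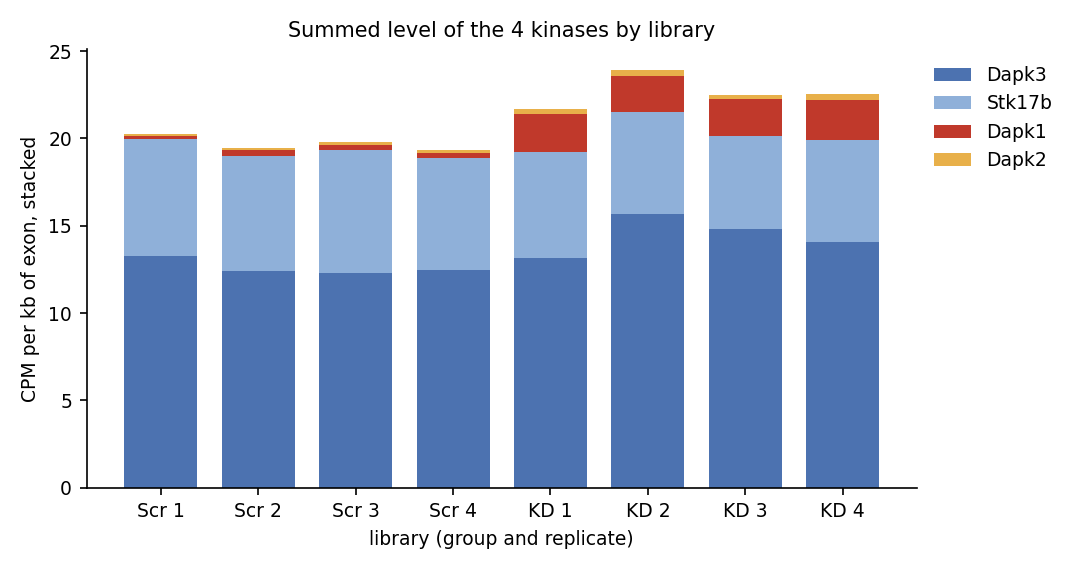
Stacked bars of the 4 kinases in CPM per kb of exon for each library (Scr 1 to 4, KD 1 to 4), starting at 0. Dapk3 and Stk17b fill most of every bar, and Dapk1 (red) grows from a mean of 1.43% of the bar in Scr to 9.58% in KD.

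The tested genes next to Dapk1 differed less between the lines than Dapk1 did, and their values are given with no test of that difference. On chromosome 13 the nearest tested gene before it, Gas1, a growth-arrest membrane protein 424581 bases away, had 11.2 ± 0.403 against 11.6 ± 1.03 CPM (adjusted p = 0.649). The nearest after it, 4930486L24Rik, 79420 bases away, had 2.17 ± 0.201 against 2.95 ± 0.827 CPM (adjusted p = 0.0547, and 0.00252 without Scr replicate 2). Of the 5 tested genes on each side, 2 rose and 1 fell at an adjusted p under 0.05, where 47.9% of all tested genes passed it, 23.8% higher and 24.1% lower. Their log2 fold changes ran from −0.79 to 0.30, and 0 of the 10 reached 2-fold. The precursor of miR-27b, which shares the seed shown above, lies on the same chromosome, and its mature arm starts 2537568 bases beyond the end of Dapk1.

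Around the paralogs, 1 of the 10 neighbours of Dapk2 reached 2-fold, and 0 of the 10 of Dapk3 and 0 of the 10 of Stk17b. The 1 gene was Car12, a membrane carbonic anhydrase 441443 bases beyond Dapk2, which rose 4.68-fold from a low level (2.24 ± 0.469 against 0.474 ± 0.113 CPM, adjusted p = 2.48e-07). Between Dapk2 and Car12 lie 3 tested genes. The first of them, Herc1, a giant ubiquitin ligase, had 128 ± 4.54 against 123 ± 10.5 CPM (adjusted p = 0.397), and on the other side of Dapk2 Fam96a, an iron-sulfur assembly factor, had 76.8 ± 1.94 against 77.2 ± 1.72 CPM (adjusted p = 0.864). Near Dapk3, Eef2 rose as given above and Mrpl54, a mitochondrial ribosomal protein on the other side, had 25.9 ± 1.76 against 23.0 ± 1.39 CPM (adjusted p = 0.0283). The call for Mrpl54 was lost in 4 of the 8 fits that left out a library, with adjusted p = 0.0688 without Scr replicate 1, 0.0938 without Scr replicate 4, 0.127 without KD replicate 2 and 0.0559 without KD replicate 3. Stk17b was lower in KD between Asnsd1, 70.1 ± 1.05 against 67.4 ± 1.36 CPM (adjusted p = 0.18), and Gtf3c3, a subunit of a transcription factor of RNA polymerase III, which rose 1.13-fold (40.9 ± 0.769 against 36.3 ± 2.00 CPM, adjusted p = 0.00409).

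**Figure D3:**
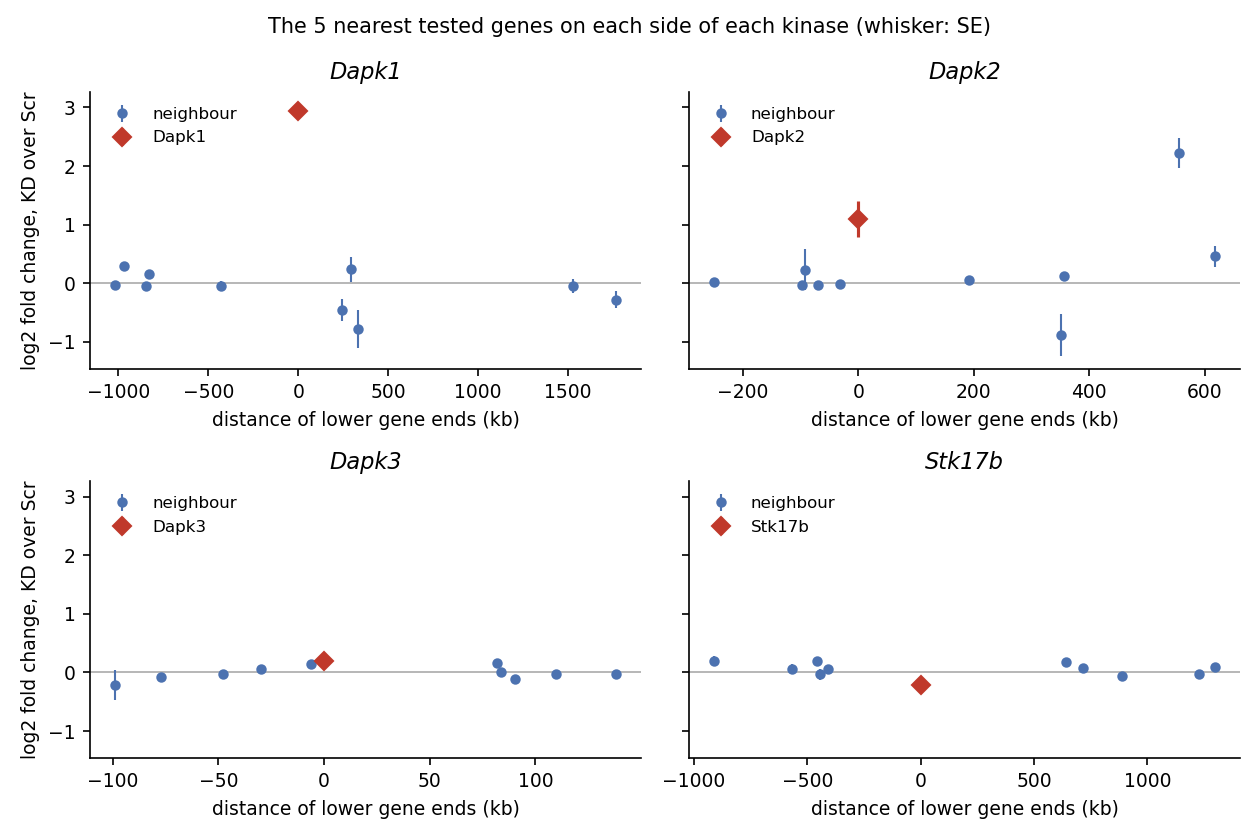
Log2 fold change (KD over Scr) with SE of each kinase (red diamond) and its 5 nearest tested genes on each side (blue points), against the distance of their lower chromosome ends in kb. Dapk1 stands at 2.94 among neighbours between −0.79 and 0.30, and Car12 is the high point to the right of Dapk2.

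The Dapk1 promoter window was rich in CpG dinucleotides, the sites of DNA methylation. The 300 bases around its RefSeq start (chromosome 13, 60601961 to 60602260) held 38 CpGs, and 4.95% of 32851 RefSeq promoter windows of that length held as many or more, with a median of 7. Dapk2 had 28, Stk17b 24 and the 3 windows of Dapk3 20, 26 and 6. CpG was counted as the letters CG, which read the same on both strands.

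The genes whose profiles over the 8 libraries were most like that of Dapk1 were sought by the root mean square difference of log2 CPM, each profile set to 0 at its Scr mean. The median difference was 2.09 over the 9589 genes ranked. These averaged 5 CPM or more and had no predicted or clone name. The closest was Hs6st2, a heparan sulfate sulfotransferase, at 0.399, followed by Ptprd, a receptor tyrosine phosphatase, at 0.541, Cldn18, a claudin, at 0.574, Nbea, a trafficking protein, at 0.644, and Mxd4, a MAX partner, at 0.705. The measure is set mostly by the size of the rise between the groups, which is the pattern Dapk1 was chosen for. These genes lie on chromosomes X, 4, 9, 3 and 5, and Dapk1 lies on chromosome 13.

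Genes that regulate or bind these kinases were counted by direction. Of 27 tested, 3 rose, 10 fell and 14 did neither, with a median log2 fold change of −0.0359 beside 0.0017 over all tested genes, of which 23.8% rose and 24.1% fell. These 2 shares are the background for each list count that follows, and no list was tested against them. Calmodulin is the calcium sensor that activates DAPK1 and DAPK2. Of its genes, Calm2 had 599.6 ± 13.8 against 600.7 ± 10.1 CPM (adjusted p = 0.94), and Calm3 had 353 ± 8.99 against 370 ± 5.74 CPM (adjusted p = 0.0248). The Calm3 call was lost with upper-quartile scaling (adjusted p = 0.102) and without Scr replicate 1 (0.0825), KD replicate 1 (0.113) or KD replicate 3 (0.0515). The tyrosine kinase Src and the phosphatase Ptprf, which act in opposite directions on a tyrosine of DAPK1, both rose, Src 1.20-fold (169 ± 4.86 against 141 ± 5.55 CPM, adjusted p = 3.35e-07) and Ptprf 1.44-fold (269 ± 4.05 against 187 ± 6.53 CPM, adjusted p = 4.61e-13). Pawr, the DAPK3 partner Par-4, fell 1.44-fold (15.8 ± 1.11 against 22.7 ± 1.62 CPM, adjusted p = 1.56e-06).

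Reported substrates were split, with 2 rises, 5 falls and 5 neither among 12 tested (median −0.0525). The myosin regulatory light chains are the classical substrates. Myl12b rose 1.08-fold (255 ± 4.97 against 235 ± 6.06 CPM, adjusted p = 0.000812) and Myl12a had 426 ± 8.20 against 429 ± 7.48 CPM (adjusted p = 0.735). These 2 genes are near-identical in their coding sequence and share exon bases in the annotation, so their counts are uncertain. Myl9 had 0 to 2 counts per library in either line and was not tested. Among the other substrates Mcm3, part of the MCM helicase that unwinds DNA in S phase, fell 1.28-fold (268 ± 8.70 against 342 ± 12.5 CPM, adjusted p = 1.00e-09) and Ppp1r12a, the targeting subunit of myosin phosphatase, 1.20-fold (114 ± 3.23 against 137 ± 5.51 CPM, adjusted p = 6.82e-07). Tpm1, a tropomyosin, fell 1.10-fold and Mark2, a polarity kinase, rose 1.18-fold (adjusted p = 1.22e-05 and 8.14e-07).

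Actomyosin genes went both ways, with 8 rises, 5 falls and 11 neither among 24 tested (median 0.0401). Mylk, the calmodulin-dependent myosin light chain kinase, fell 1.41-fold (26.0 ± 1.61 against 36.6 ± 1.53 CPM, adjusted p = 1.07e-07). Rhob, a small GTPase of the cytoskeleton, rose 1.38-fold (74.0 ± 6.54 against 53.8 ± 1.14 CPM, adjusted p = 7.37e-08) and Ppp1cb, the catalytic subunit of myosin phosphatase, 1.11-fold (302 ± 3.11 against 271 ± 2.82 CPM, adjusted p = 6.91e-06).

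Of 34 other kinases listed from the calmodulin-dependent group, 19 were tested, and 4 rose, 3 fell and 12 did neither (median −0.0525). Those called made up 36.8%, beside 47.9% of all tested genes. Without Scr replicate 4 there were 5 falls. Camk2b, a chain of CaM kinase II, rose 1.35-fold (adjusted p = 1.87e-05), Eef2k, the kinase of elongation factor 2, rose 1.17-fold (adjusted p = 0.000452) and Camk1 fell 1.13-fold (adjusted p = 0.00119). Kalrn, a guanine nucleotide exchange factor with a kinase domain, was the 1 tested gene of this list to reach 2-fold (6.52 ± 0.839 against 2.64 ± 0.301 CPM, 2.45-fold, adjusted p = 5.00e-08). It was singled out after its values were seen. Its log2 fold change of 1.29 compares with 2.94 for Dapk1 and 1.09 for Dapk2.

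Apoptosis genes downstream of death receptors moved in both directions, with 4 rises, 5 falls and 10 neither among 19 tested (median 0.0146). Bid, which links caspase-8 to mitochondria, fell 1.35-fold (43.5 ± 1.27 against 58.8 ± 2.80 CPM, adjusted p = 2.57e-08), Cycs, cytochrome c, fell 1.18-fold and Htra2, a mitochondrial protease that opposes caspase inhibitors, 1.15-fold (adjusted p = 5.67e-07 and 7.83e-05). Cflar, an inhibitor of caspase-8, rose 1.16-fold (74.0 ± 2.22 against 63.8 ± 3.14 CPM, adjusted p = 0.00012). These 4 genes had the smallest adjusted p of the list. Its other called genes were Tnfrsf10b, Tnfrsf1a and Casp6, which rose 1.13-, 1.08- and 1.22-fold (adjusted p = 0.000142, 0.0131 and 0.000677). Birc3 and Fadd fell 1.38- and 1.12-fold (adjusted p = 0.000192 and 0.0175). No direction of apoptosis is read from these levels. Bid shares 628 exon bases with Bcl2l13 on the opposite strand, and Htra2 shares exon bases with Aup1 and Loxl3.

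In the list of Beclin-complex and autophagy-initiation genes 6 rose, 0 fell and 9 did neither of 15 tested (median 0.0978). The rises, which were all the calls of the list, made up 40% of it, where 23.8% of all tested genes rose and 47.9% were called in either direction. Without Scr replicate 1, or without KD replicate 1, there were 3 rises. Becn1, the reported DAPK1 substrate at the centre of this list, had 107 ± 1.10 against 106 ± 3.44 CPM (adjusted p = 0.738), and it shares 3104 exon bases with Cntd1 on the opposite strand. Ulk1, the kinase that starts autophagy, rose 1.42-fold (45.8 ± 1.11 against 32.2 ± 1.59 CPM, adjusted p = 7.67e-09) and Rb1cc1, its scaffold, 1.17-fold (64.0 ± 1.66 against 54.5 ± 2.79 CPM, adjusted p = 6.94e-05). Ulk2 rose 1.10-fold (adjusted p = 0.0195), a call lost without Scr replicate 1 (adjusted p = 0.0633) or KD replicate 1 (0.0581). Bcl2, which rose 1.19-fold (adjusted p = 0.000993), is known to restrain Beclin rather than to promote autophagy.

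Reported transcriptional regulators of Dapk1 and enzymes of DNA methylation had 4 rises, 8 falls and 9 neither among 21 tested (median −0.0657). The rises made up 19.0% and the falls 38.1%, beside 23.8% and 24.1% of all tested genes. Dnmt1, the maintenance DNA methyltransferase, fell 1.25-fold (363 ± 5.24 against 456 ± 10.1 CPM, adjusted p = 9.66e-11) and Uhrf1, which recruits it to replicated DNA, 1.30-fold (275 ± 5.35 against 356 ± 6.15 CPM, adjusted p = 1.77e-11). E2f1, a cell-cycle factor reported to activate Dapk1, fell 1.32-fold (38.1 ± 2.55 against 50.3 ± 2.16 CPM, adjusted p = 6.14e-07). Trp53, also reported as an activator, fell 1.12-fold (257 ± 4.48 against 289 ± 5.83 CPM, adjusted p = 5.80e-06). Methylation of the Dapk1 promoter was not measured, so these are levels of mRNA only.

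**Figure D4:**
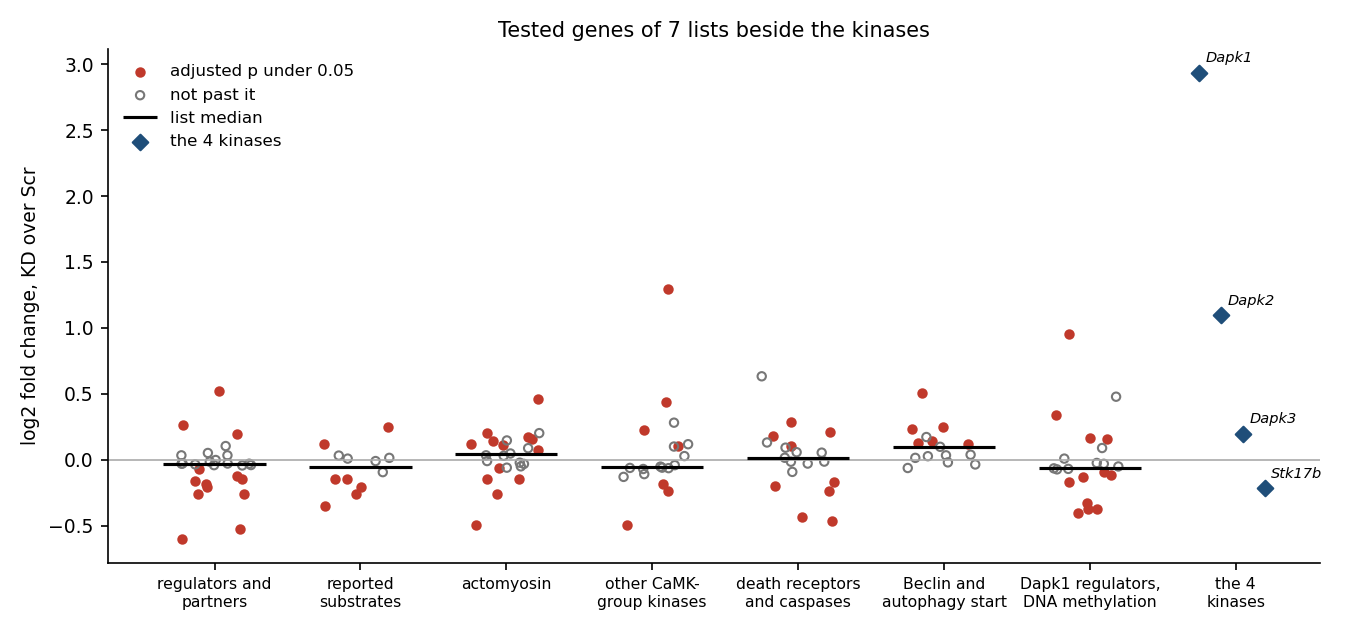
Log2 fold change (KD over Scr) of the tested genes of 7 lists, filled red where the adjusted p was under 0.05 and open otherwise, with the list median as a bar and the 4 kinases as blue diamonds (some genes stand in more than 1 list, and sideways position has no meaning). List medians lie between −0.0657 and 0.0978, and Dapk1 at 2.94 lies above every listed gene.

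The libraries held 19165513 to 23542275 counts, so 0 observed counts leave room for 3 counts, or 0.127 to 0.157 CPM, by counting error alone. Scr replicate 2 stood apart: chi-square values per gene for its pairs with other Scr libraries were 5.01 to 5.19, and 1.79 to 2.31 for the pairs without it, and without it the log2 fold change of Dapk1 was 3.03. All 10 ductal and epithelial markers were tested, and their summed level was 10767 to 11740 CPM in Scr and 11678 to 11996 CPM in KD. Fibroblast markers summed to 0.934 to 1.39 CPM in Scr and 0.730 to 1.39 CPM in KD, with Col1a2, Dcn, Lum and Pdgfrb at 0 in all libraries. The 7 leukocyte markers summed to 3.70 to 4.09 and 2.73 to 4.44 CPM, mostly from Cd68, with Adgre1 at 0 in all libraries, and the 5 endothelial markers to at most 1.15 CPM. The ranges of each of these 4 sums overlapped between the groups.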

How the data were processed

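The authors deposited raw counts per gene for 8 poly(A) mRNA libraries (paired 59-base reads, per the labels' protocols) of 2 cell lines, 4 libraries each. The submitters' processing notes name bcl2fastq 2.20, Bowtie, STAR, DESeq2 1.36.0, R 4.2.1 and the mm10 build, without roles. For the counting tool, its annotation and its use of strand, the entry is the same: not given in the sources used here. Of 24421 rows, 8403 were 0 in every library. edgeR 4.0.16 (R 4.3.3) was fitted on the whole table with group as the only term: filterByExpr (minimum count 10, total 15) kept 11797 genes, TMM factors were used, and the quasi-likelihood test was called at a Benjamini-Hochberg adjusted p under 0.05. The SE of a log2 fold change is its size divided by the square root of F. The fit was also run on simulated counts with known changes. That simulation had far fewer changed genes than were called here, and the same spread setting for every gene. It therefore does not check the calls made in these data. The precision of low genes is limited by counting error, with 19165513 to 23542275 counts per library.

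Symbols were matched to GENCODE M21 (GRCm38), 23309 directly and 647 through older names, for positions, exon lengths and 3′ UTRs. The kinases and lists were chosen with earlier results of these data known. Besides the 4 kinases, the text names the 5 genes most like Dapk1 (mean of at least 5 CPM, no predicted or clone name). It also names up to 4 called genes per list with the smallest adjusted p, calmodulin and myosin light chain genes, Becn1 and Mylk. The nearest neighbours and any neighbour of 5 on each side past 2-fold are named as well. For the apoptosis list the remaining called genes are also given, but they were not among the 49 named genes checked for outlying libraries. Alternatives were DESeq2 1.42.0, limma 3.58.1 voom, upper-quartile scaling, other filters, a replicate block and leaving out each library. Same-numbered libraries of the groups did not deviate together (correlations −0.035 to 0.0201), so the numbers were not taken as pairs. Some results are not reported here.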

Additional observations from a re-analysis of the deposited data

Results flagged for a closer look

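In each group of 4 libraries, for 49 named genes, the highest and lowest library was compared with the rest by Dixon's gap over range, which chance exceeds in about 1 group in 20. Of 98 groups, 5 had a library that stood apart. Dapk2 was at 0.680 CPM in Scr replicate 4 against 0.388 to 0.429 in the other Scr libraries, a gap of 0.862 of the range, on 14 against 8 to 10 counts. Among the other genes, Ulk1 was at 44.1 CPM in KD replicate 3 (others 46.2 to 46.5) and Myl12a at 414 CPM in KD replicate 3 (others 429 to 431). Myl12b was at 244 CPM in Scr replicate 2 (others 231 to 233) and Eef2 at 2826 CPM in Scr replicate 2 (others 2914 to 2931).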

How the results depend on the processing

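Each of the 4 kinases kept its direction under every alternative in which it was fitted. The log2 fold changes ran from 2.80 to 3.05 for Dapk1, 0.98 to 1.31 for Dapk2, 0.16 to 0.24 for Dapk3 and −0.24 to −0.18 for Stk17b, and these limits were those of leaving out 1 library. With the replicate number as a block they were 2.94, 1.08, 0.19 and −0.22, and the block gave 2762 higher and 2771 lower genes against 2804 and 2841 without it, so it changed no count by over 1.5 times. Dapk2 could not be fitted under a minimum of 1 CPM in 4 libraries, which removes it. With upper-quartile scaling 3188 genes were higher and 2478 lower. With 10 neighbours on each side, 1 gene beside Stk17b reached 2-fold (Plcl1, log2 fold change 1.64) in place of 0. Beside Dapk1 there were still 0, but the highest log2 fold change was 0.999, just under 2-fold, against 0.30 with 5 on each side. Leaving out 1 library gave 3 to 7 rises in the Beclin and autophagy list and 3 to 5 falls in the list of calmodulin-dependent kinases. At 8 to 27 counts per library, depth limits what can be said of Dapk2.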
